A study of Oryza sativa with 7 samples.

Results

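The genes described here are 10 rice loci of the Polycomb repressive complex 2 (PRC2) and of DNA methylation, out of 24775 gene identifiers in the series, chosen as a list of identifiers and not by their values. They are CLF (LOC_Os06g16390), EZ1 (LOC_Os03g19480), EMF2a (LOC_Os04g08034), EMF2b (LOC_Os09g13630), FIE1 (LOC_Os08g04290), FIE2 (LOC_Os08g04270), MET1-1 (LOC_Os03g58400), MET1-2 (LOC_Os07g08500), DDM1 (LOC_Os09g27060) and DRM2 (LOC_Os03g02010). The series profiled crown root primordia, the buds of shoot-borne roots, by RNA sequencing. It has 2 libraries of primordia at outgrowth, 3 libraries of primordia at initiation and 2 libraries of ground tissue, the control. All came from the stem base of wild-type seedlings of the indica cultivar IR64, grown for 6 days on MS medium, a plant nutrient medium, under a day and night cycle. The cells were cut out by laser capture microdissection, and the labels do not say how many seedlings gave the cells of a library.

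PRC2 places methyl groups on histone H3, a mark under which genes stay silent through cell divisions. The complex combines a catalytic subunit of the Enhancer of zeste type (CLF or EZ1), a zinc-finger subunit of the EMF2 type and a WD40-repeat subunit of the FIE type. DNA methylation silences transposons and some genes, and it is copied at CG sites after DNA replication by enzymes of the MET1 type. DDM1 is a chromatin remodeller that opens heterochromatin to these enzymes. DRM2 methylates new sites guided by small RNAs.

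Read totals lay between 8351775 and 25448025 per library, with 18597 to 22185 genes listed. At initiation, replicates 1 and 3 were closer to each other than sampling noise allows for (0.400 times the counting variance on average, against 27.5 times between replicates 1 and 2). They were merged by their mean and count as 1 sample, so n = 2 in each group. Levels are given as CPM, a gene's reads per 1000000 reads of its table. CPM is not corrected for gene length, so levels of different genes are not compared. Marker loci, listed from general knowledge of rice, were checked against the tissue labels. The 4 root primordium loci summed to 358 to 419 CPM at outgrowth, 555 to 593 CPM at initiation, and 13.3 and 40.0 CPM in control. At outgrowth nearly all of the sum came from LOC_Os02g40070, at 398 and 338 CPM, a locus without a read in control. Of the 4 loci, 1 was called higher and 1 lower than control at outgrowth (an edgeR adjusted p below 0.05), and 2 higher and 1 lower at initiation. LOC_Os02g40070 was called higher at both stages and LOC_Os01g63510 at initiation only. LOC_Os01g63510 had 20.6 and 20.2 CPM at outgrowth, 160 to 236 CPM at initiation, and 1.32 and 15.0 CPM in control. LOC_Os03g05510 was not called at either stage. It had 0.0799 and 0.529 CPM at outgrowth, 3.40 to 6.40 CPM at initiation, and 0 and 0.825 CPM in control. The locus called lower at both stages, LOC_Os07g48560, had at most 1.60 CPM in any primordium library and 12.0 and 24.2 CPM in control. The 4 green tissue loci summed to 3.00 to 3.60 CPM in the primordia and to 232 and 622 CPM in control. The shoot meristem locus LOC_Os03g51690 had 13.1 to 15.0 CPM at outgrowth, 67.9 to 72.9 CPM at initiation, and 415 and 429 CPM in control. The control libraries therefore held RNA of this meristem locus as well as of green tissue loci. The outgrowth tables also differ in format from the others, so a batch of their own cannot be told apart from the stage.

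Reads were found for 8 of the 10 genes. FIE1, which is imprinted and expressed mainly in the endosperm of the rice seed, was not listed in any table, and neither was DDM1. Taken as 0 reads, each allows at most 0.118 CPM in control replicate 2, the deepest library, and 0.359 CPM in control replicate 1, the shallowest (3 counts, counting error only). The loci numbered directly before and after each of them were listed with reads in all 7 libraries. A gene with no read cannot be told apart here from a gene that was not counted. All 8 genes with reads passed the filter (1 CPM or more in 2 libraries) and were tested among 18836 genes with edgeR's quasi-likelihood test.

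EMF2a was higher in primordia of both stages than in control, by about the same fold at each. This zinc-finger subunit had 73.5 and 89.2 CPM in the outgrowth libraries, 85.2, 77.3 and 84.3 CPM in initiation replicates 1, 2 and 3, and 35.3 and 49.2 CPM in control. Every primordium library lay above both control libraries. The level was 81.3 ± 11.1 CPM at outgrowth and 80.9 ± 5.18 CPM at initiation, against 42.3 ± 9.84 CPM in control (SD, n = 2 each). The log2 fold change was 0.98 at outgrowth (standard error 0.239, edgeR adjusted p = 0.0210) and 1.02 at initiation (standard error 0.239, edgeR adjusted p = 0.0162). Both comparisons use the same control libraries. At outgrowth the call ended without outgrowth replicate 1 (edgeR adjusted p = 0.0783) or replicate 2 (0.192), and at initiation without initiation replicates 1 and 3 (0.0702) or replicate 2 (0.0629). The log2 fold change then lay at 1.13, 0.84, 0.98 and 1.07. Over 17 alternatives the adjusted p of EMF2a ranged over 0.00133 to 0.192 at outgrowth and 0.000638 to 0.0702 at initiation, and 14 kept the call at each stage.

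EMF2b, the other zinc-finger subunit, known in rice for its role in flower development, did not pass the test. It had 27.4 and 29.4 CPM at outgrowth, 33.0, 16.4 and 32.4 CPM in initiation replicates 1, 2 and 3, and 11.1 and 22.6 CPM in control. Initiation replicate 2 fell between the control libraries, and the outgrowth libraries lay above both. The log2 fold change was 0.78 at outgrowth (95% interval -0.27 to 1.83, edgeR adjusted p = 0.241) and 0.61 at initiation (-0.43 to 1.66, edgeR adjusted p = 0.338), so a rise of the size seen for EMF2a lies within both intervals. Without control replicate 2, EMF2b was called higher at outgrowth, with a log2 fold change of 1.45 (edgeR adjusted p = 0.0382, the lowest of its alternatives, which reached 0.557).

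The catalytic subunits did not pass the test in any comparison. CLF had 83.6 and 86.3 CPM at outgrowth, 76.1, 97.8 and 73.8 CPM in initiation replicates 1, 2 and 3, and 83.1 and 57.4 CPM in control. Control replicate 1 lay within the range of the primordia, and its distance from control replicate 2 was wider than the difference between the group means. The log2 fold change of CLF was 0.32 at outgrowth (95% interval -0.25 to 0.90) and 0.39 at initiation (-0.18 to 0.97). These intervals of the main fit leave out a change of 2-fold in either direction, at initiation only narrowly. Over the 17 alternatives the log2 fold change of CLF ranged over 0.13 to 0.58 at outgrowth and 0.16 to 0.65 at initiation. EZ1 had 12.6 and 12.0 CPM at outgrowth, 12.9, 7.99 and 13.0 CPM in initiation replicates 1, 2 and 3, and 8.26 and 8.61 CPM in control. Both outgrowth libraries were above control, while initiation replicate 2 was below it. Its log2 fold change was 0.59 at outgrowth (-0.46 to 1.64) and 0.40 at initiation (-0.64 to 1.45).

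FIE2, the WD40-repeat subunit expressed throughout the rice plant, had the smallest fitted differences from control among the 8 genes. It had 78.2 and 82.8 CPM at outgrowth, 88.9, 60.5 and 88.9 CPM in initiation replicates 1, 2 and 3, and 55.0 and 92.0 CPM in control. The control libraries spanned the whole range of the primordia. The log2 fold change was 0.17 at outgrowth (95% interval -0.51 to 0.85) and 0.11 at initiation (-0.57 to 0.79). It was negative at both stages without control replicate 1, at -0.18 and -0.24, and at initiation without replicates 1 and 3, at -0.17. FIE1 and FIE2 are close relatives at neighbouring loci, and how reads shared between them were counted is not given in the sources used here.

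**Figure D1:**
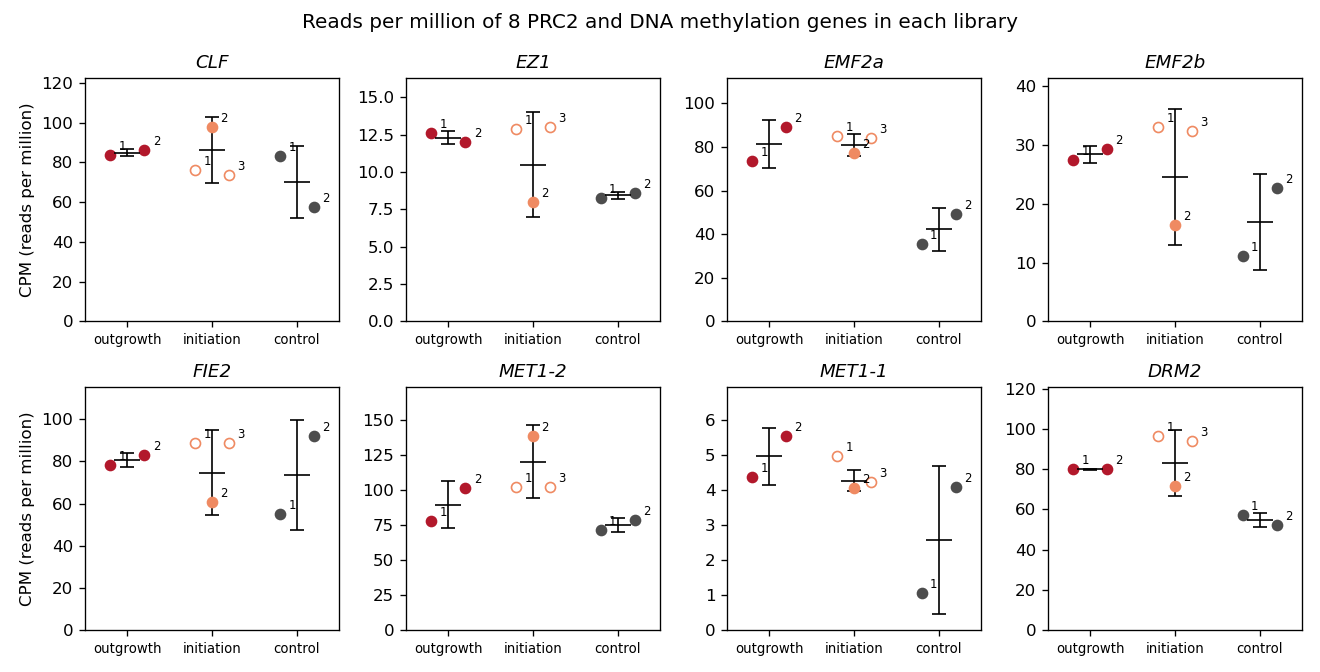
CPM of each of the 8 genes with reads (y axes, each from 0) in the outgrowth, initiation and control libraries, with replicate numbers beside the points. Open circles are initiation replicates 1 and 3, counted as 1 sample; the bar and whiskers are the mean and SD of n = 2. For EMF2a and DRM2 all primordium libraries lie above both control libraries, and for FIE2 the control libraries at 55.0 and 92.0 CPM span the primordia.

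MET1-2, the main maintenance methyltransferase of rice, was higher at initiation than in control. It had 77.7 and 101 CPM at outgrowth, 103, 139 and 102 CPM in initiation replicates 1, 2 and 3, and 71.6 and 78.7 CPM in control. All initiation libraries lay above all others, while outgrowth replicate 1 lay within the control range. The level was 120.4 ± 25.7 CPM at initiation against 75.2 ± 5.05 CPM in control (SD, n = 2 each), and the fitted log2 fold change was 0.77 (standard error 0.237, edgeR adjusted p = 0.0423). At outgrowth the log2 fold change against control was 0.30 (95% interval -0.25 to 0.85, edgeR adjusted p = 0.392). The call at initiation ended without initiation replicate 2 (log2 fold change 0.52, edgeR adjusted p = 0.216), without control replicate 1 (0.68, edgeR adjusted p = 0.106) and without outgrowth replicate 1 or 2 (edgeR adjusted p = 0.0754 and 0.0781), which enter through the shared spread. It also ended with scaling by library totals alone (edgeR adjusted p = 0.0583) and with only initiation and control in the fit (0.0757), and 10 of 17 alternatives kept it (adjusted p 0.0109 to 0.216).

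MET1-1, its close relative, rested on few reads: 55 and 63 at outgrowth, 57, 61 and 89 at initiation, and 9 and 104 in control replicates 1 and 2. These are 4.39 and 5.56 CPM at outgrowth, 4.99, 4.06 and 4.23 CPM at initiation, and 1.08 and 4.09 CPM in control. Control replicate 1 stood low, and control replicate 2 was at the level of initiation. The log2 fold change was 0.95 at outgrowth (95% interval -0.89 to 2.80) and 0.78 at initiation (-1.05 to 2.62), the widest intervals of the 8 genes. Neither difference passed the test. Without control replicate 2, MET1-1 was called higher at both stages, at 2.29 (edgeR adjusted p = 0.0369) and 2.12 (0.0446), with control then resting on 9 reads. Over its alternatives the adjusted p reached 0.768 at outgrowth and 0.882 at initiation.

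DRM2 was higher at initiation than in control. It had 79.9 and 80.2 CPM at outgrowth, 96.5, 71.7 and 93.9 CPM in initiation replicates 1, 2 and 3, and 57.1 and 52.3 CPM in control. All primordium libraries lay above both control libraries. The level was 83.2 ± 16.4 CPM at initiation against 54.7 ± 3.40 CPM in control (SD, n = 2 each), and the fitted log2 fold change was 0.70 (standard error 0.207, edgeR adjusted p = 0.0384). At outgrowth the level was 80.0 ± 0.203 CPM (SD, n = 2), and the log2 fold change of 0.59 (95% interval 0.11 to 1.08) missed the threshold (edgeR adjusted p = 0.0709). The call at initiation ended without initiation replicates 1 and 3 (log2 fold change 0.50, edgeR adjusted p = 0.157), without outgrowth replicate 1 or 2 (edgeR adjusted p = 0.108 and 0.109) with scaling by library totals alone (0.0650), with only initiation and control in the fit (0.115) and with the replicate number as a block (0.0547). Of 17 alternatives 10 kept it (adjusted p 0.00703 to 0.157). At outgrowth 3 alternatives called DRM2, DESeq2 among them (adjusted p = 0.0275, within 0.0275 to 0.324).

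In all, 3 of the 8 tested genes were called higher at initiation than in control (EMF2a, MET1-2 and DRM2), where 14.4% of all genes tested were called higher. At outgrowth 1 of 8 was called higher (EMF2a), against 12.8% of all genes. When the dispersion was fitted with no trend on abundance, all of these calls ended (edgeR adjusted p of EMF2a 0.0720 at outgrowth and 0.0599 at initiation). None was called lower, against 16.0% of all genes at initiation and 13.6% at outgrowth. All 8 fitted log2 fold changes against control were positive at each stage. Among all genes tested, 49.3% were positive at outgrowth and 48.3% at initiation. Without control replicate 1, FIE2 was negative at both stages, at -0.18 at outgrowth and -0.24 at initiation. The medians of the 8 genes were 0.59 at outgrowth and 0.65 at initiation, where the medians of all genes were -0.02 and -0.05. The libraries of 6 genes (all but FIE2 and MET1-2) lay wholly above control at outgrowth, a pattern shown by 33.8% of all genes tested. Those of 3 genes did so at initiation, against 28.7%. At outgrowth the margin was narrow for CLF, with 83.6 CPM in outgrowth replicate 1 and 83.1 CPM in control replicate 1. It was also narrow for MET1-1, with 4.39 CPM in outgrowth replicate 1 and 4.09 CPM in control replicate 2. The stages share the control libraries, so they are not separate evidence. The summed PRC2 genes had 275 and 300 CPM at outgrowth, 296, 260 and 292 CPM in initiation replicates 1, 2 and 3, and 193 and 230 CPM in control. The summed DNA methylation genes had 162 and 187 CPM at outgrowth, 204, 214 and 200 CPM at initiation, and 130 and 135 CPM in control. The sums include the called genes EMF2a, MET1-2 and DRM2, so they are not separate evidence of a rise in the other genes. In tissue samples, fewer cells that express a gene and less RNA per cell cannot be told apart.

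**Figure D2:**
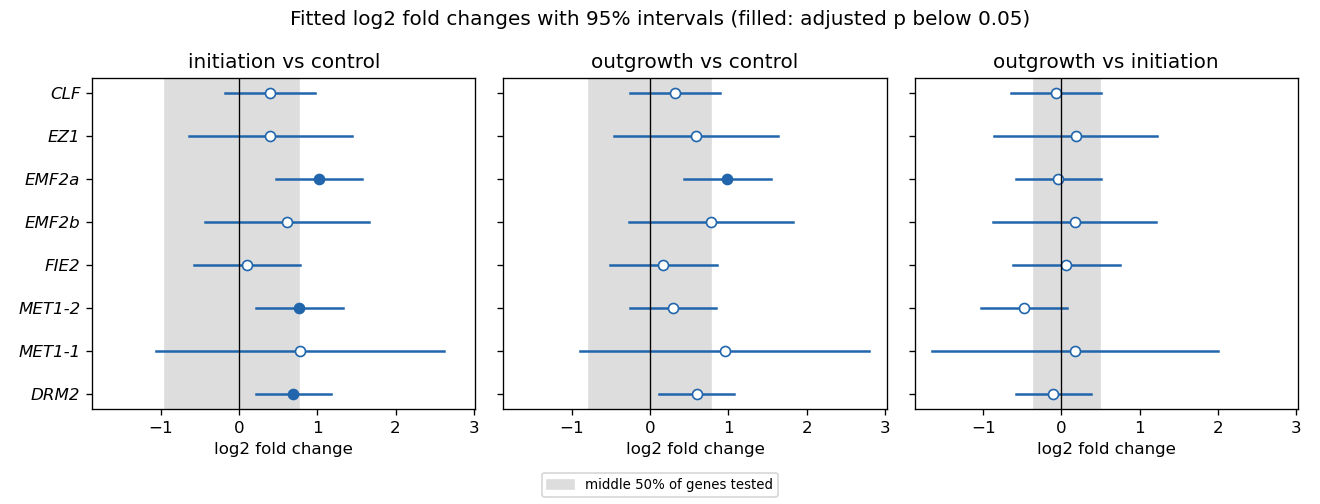
Fitted log2 fold changes (x axis) of the 8 genes (rows) with 95% intervals in the 3 comparisons; the first named group is over the second, filled points passed an adjusted p of 0.05, and the grey band holds the middle 50% of genes tested. EMF2a, MET1-2 and DRM2 are filled for initiation against control, EMF2a alone for outgrowth against control, and no gene between the stages.

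Between the stages, no member passed the test by edgeR, at an adjusted or an unadjusted p below 0.05, where 3.07% of all genes were called after adjustment and 17.4% had an unadjusted p below 0.05. DESeq2 and limma likewise called 0 of the 8. EMF2a averaged 81.3 CPM at outgrowth and 80.9 CPM at initiation, a log2 fold change of -0.04 (95% interval -0.59 to 0.51). For CLF it was -0.07 (-0.64 to 0.50), for DRM2 -0.10 (-0.58 to 0.38) and for FIE2 0.06 (-0.62 to 0.74), all of which leave out a 2-fold change. EZ1, EMF2b and MET1-1 had intervals that include a 2-fold change in at least 1 direction, with log2 fold changes of 0.19, 0.17 and 0.17. MET1-2 had the largest difference, with 89.5 ± 16.7 CPM at outgrowth and 120.4 ± 25.7 CPM at initiation (SD, n = 2 each), and the fitted log2 fold change was -0.48 (-1.02 to 0.07, edgeR adjusted p = 0.364). Its libraries did not overlap, with outgrowth replicate 2 at 101 CPM just below initiation replicate 3 at 102 CPM; 24.9% of all genes tested were without overlap in this direction.

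The balance within pairs of related genes was followed as a share of the pair's reads. The order of libraries by such a share does not depend on the genes' lengths, while the size of a difference in percentage points does. EZ1 took 13.1% and 12.2% of the reads of EZ1 and CLF at outgrowth, 14.5%, 7.56% and 15.0% in initiation replicates 1, 2 and 3, and 9.04% and 13.0% in control. Initiation replicate 2 stood lowest, with an exact 95% binomial interval of 6.31% to 8.97%. EMF2a took 72.8% and 75.2% of the reads of EMF2a and EMF2b at outgrowth, 72.1%, 82.5% and 72.2% at initiation, and 76.0% and 68.5% in control. MET1-1 took 5.35% and 5.20% of the reads of MET1-1 and MET1-2 at outgrowth, 4.65%, 2.85% and 3.98% at initiation, and 1.48% and 4.93% in control. In each pair the control libraries differed by more than the group means. Primordia against control differed by 0.895, 3.39 and 1.20 percentage points for EZ1, EMF2a and MET1-1 (n = 4 and 2), with two-sided exact permutation p = 0.800, 0.533 and 0.400. Adjusted over these 3 shares the exact permutation p was 0.800 for each, and the smallest p that this design allows is 0.133. The binomial intervals cover counting error only.

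**Figure D3:**
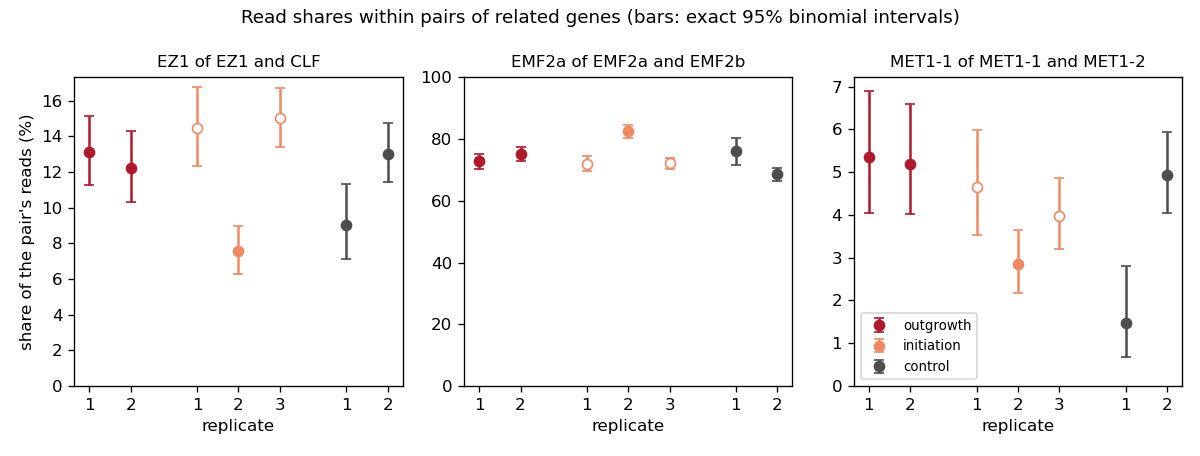
Share of a pair's reads (y axis, percent) taken by EZ1, EMF2a and MET1-1 in each library, with exact 95% binomial intervals; open circles are initiation replicates 1 and 3. Initiation replicate 2 stands apart from replicates 1 and 3 in the EZ1 share, at 7.56%, and in the EMF2a share, at 82.5%.

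Other loci of these pathways were taken from lists written from general knowledge, which the deposited tables do not annotate. Of 11 loci for DNA methylation and demethylation, 7 had reads and were tested. At initiation 1 of the 7 was called higher than in control and none lower, about the share of all genes called higher (14.4%), and the list's median log2 fold change was 0.07, against -0.05 over all genes. At outgrowth none was called in either direction, with a median of -0.33 against -0.02 over all genes. The called locus, LOC_Os10g01570, had 89.5 and 126 CPM at outgrowth, 174, 220 and 173 CPM in initiation replicates 1, 2 and 3, and 65.4 and 77.0 CPM in control. Its log2 fold change was 1.56 at initiation (standard error 0.244, edgeR adjusted p = 0.00340) and 0.64 at outgrowth (edgeR adjusted p = 0.0878). As for MET1-2, its initiation libraries lay above all others.

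Of 11 loci for Polycomb partners and other histone methylation or demethylation, 10 were tested. At initiation 3 were called higher and none lower, against 14.4% and 16.0% of all genes, and the list's median log2 fold change was 0.56. At outgrowth 2 were called higher and none lower, against 12.8% and 13.6% of all genes, with a median of 0.16. LOC_Os09g04890 had 63.5 and 69.0 CPM at outgrowth, 76.6, 79.5 and 78.5 CPM at initiation, and 26.6 and 40.1 CPM in control. It was called higher at both stages, with log2 fold changes of 1.03 at outgrowth (edgeR adjusted p = 0.0219) and 1.32 at initiation (edgeR adjusted p = 0.00755). LOC_Os12g34850 was likewise called higher at both stages, at 0.89 at outgrowth (edgeR adjusted p = 0.0446) and 1.01 at initiation (0.0253). LOC_Os02g05840 was called higher at initiation (1.08, edgeR adjusted p = 0.00369), and at outgrowth its log2 fold change was 0.51 (edgeR adjusted p = 0.0617). No locus of either list was called between the stages.

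The 9 loci listed for dividing cells moved in the same comparisons. They summed to 2150.3 and 2541 CPM at outgrowth, 3271, 3504 and 3280.5 CPM in initiation replicates 1, 2 and 3, and 1087 and 1303 CPM in control, and none was at 0 in any library. At initiation 9 of 9 were called higher than in control (median log2 fold change 1.50), and at outgrowth 7 of 9 (median 1.17). Between the stages LOC_Os01g59120 was called lower at outgrowth (-1.58, edgeR adjusted p = 0.0337) and the other 8 were not called. The median rise of these loci was larger than that of the PRC2 and DNA methylation genes at each stage, a difference described without a test. The part of dividing cells, green tissue and the shoot meristem in the values of PRC2 and DNA methylation genes was not tested.

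**Figure D4:**
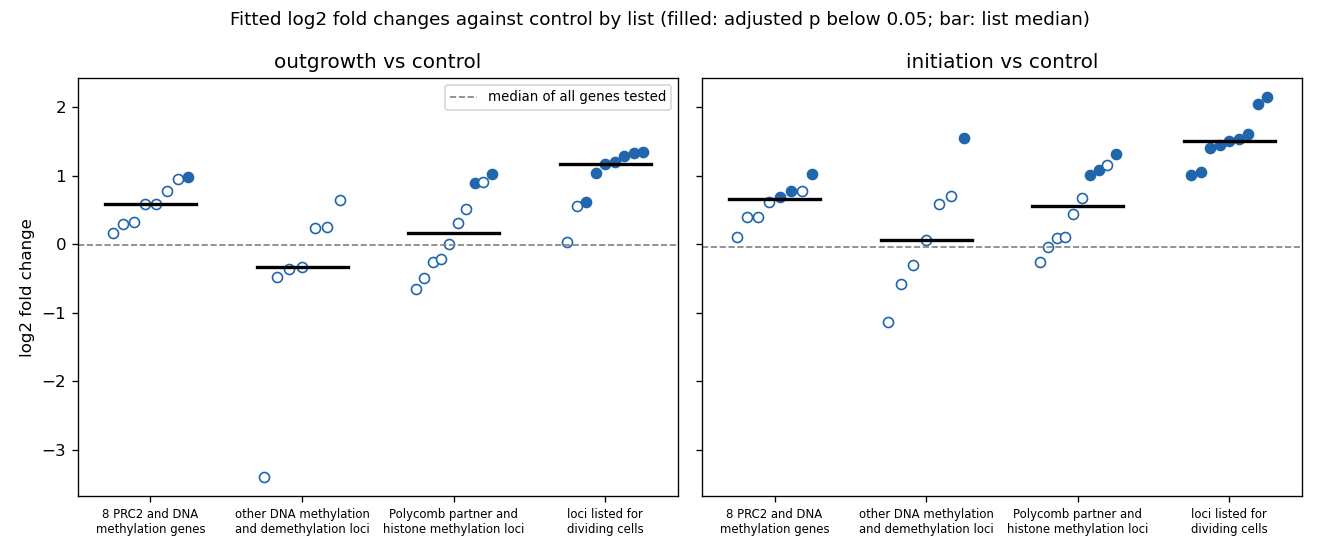
Fitted log2 fold changes against control (y axis) at outgrowth and at initiation for the 8 tested PRC2 and DNA methylation genes and for 3 lists of other loci, each point a gene. Filled points passed an adjusted p of 0.05, the short bar is the list's median, and the dashed line is the median of all genes tested; the dividing-cell loci stand highest, with medians of 1.17 and 1.50.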

How the data were processed

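The authors deposited, for each of 7 libraries, a table of gene identifiers and read counts. The columns are headed FPKM, but they hold whole numbers of at least 1 with totals that differ between libraries, so they were treated as counts, with 0 for a gene that a table does not list. The aligner was STAR, per the submitters' processing notes. For the counting tool, build, annotation and strand setting, a statement is not given in the sources used here. The library kit, per the labels' protocols, was SMARTer low-input, which amplifies cDNA from little RNA. Gene names were assigned to the identifiers from a list written for this work, as none of the 24775 identifiers matched the RefSeq table used here. Sequences of these loci were not used here.

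Genes that reached 1 CPM in 2 or more libraries entered edgeR 4.0.16 in R 4.3.3 (TMM scaling, trended dispersion, 3 residual degrees of freedom) in a joint fit of 3 groups with 2 samples each, with two-sided p-values adjusted by the Benjamini-Hochberg method over 18836 genes. Initiation replicates 1 and 3 were averaged and rounded. Fitted fold changes use TMM-scaled totals, and CPM uses the table totals. The F statistic gave the standard errors and 95% intervals. The test was checked on simulated data, where it missed most 2-fold changes in each comparison. A gene that did not pass may therefore still differ by about that much, where its 95% interval includes such a change. DESeq2 1.42.0 and limma 3.58.1 were alternatives.

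The genes and lists were chosen with earlier results of these data known. All 10 genes are named, as are the shoot meristem locus and the root primordium loci, called or not. Of the other lists at most 2 called loci per direction and comparison were picked. Since nothing in the labels ties libraries to seedlings, p-values measure the spread between libraries, which may be technical. Floors and binomial intervals cover counting error only, and low values are more precise in deeper libraries.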

Additional observations from a re-analysis of the deposited data

How the results depend on the processing

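Of 8 members, 3 were called at initiation against control. This was 1 with library totals alone or with only the groups compared in the fit (EMF2a in both), and 0 without an abundance trend of the dispersion, where 3 had an unadjusted p below 0.05; leaving out a sample gave 1 to 4. At outgrowth 1 was called, against 2 with DESeq2, with upper-quartile scaling or with initiation replicates 1 and 3 kept separate (EMF2a and DRM2), and 0 without the trend (1 at an unadjusted p below 0.05); leaving out a sample gave 0 to 3. Between the stages 0 were called under every alternative run. Where a group was left with 1 sample, that sample was assumed to vary like the other groups.

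Over all genes, leaving out a sample gave 3026 to 7969 calls at initiation against control, where 5721 were called, 1548 to 7590 at outgrowth (4981), and 0 to 1807 between the stages (578). Between the stages, DESeq2 called 1808, no low filter 1554, limma on log2(CPM + 1) 1027, the fit of only the groups compared 1936, separate initiation replicates 1641, and no abundance trend 0 (2987 at an unadjusted p below 0.05).

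Log2 fold changes turned sign only where they were not called. EMF2a between the stages was 0.027 with upper-quartile scaling and 0.007 with library totals alone, and FIE2 was -0.017 with initiation replicates 1 and 3 separate. Leaving out a sample gave, between the stages, -0.27 to 0.16 for CLF, -0.11 to 0.55 for EZ1, -0.18 to 0.11 for EMF2a, -0.23 to 0.72 for EMF2b, -0.17 to 0.34 for FIE2, -0.007 to 0.35 for MET1-1 and -0.27 to 0.09 for DRM2. For FIE2 it gave -0.18 to 0.65 at outgrowth and -0.24 to 0.58 at initiation against control. The read shares, primordia minus control, ranged over -1.10 to 2.89 percentage points for EZ1, -0.351 to 7.14 for EMF2a and -0.531 to 2.92 for MET1-1. The cause was not tested. MET1-1 rests on the fewest reads of the 8 members tested, 9 in control replicate 1.

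The labels number replicates alike in each group, but same-numbered samples did not deviate together (correlations across genes of -0.02 to 0.01). With the replicate number as a block, 2 members were called at initiation (EMF2a and MET1-2; DRM2 at an adjusted p of 0.0547), 1 at outgrowth and 0 between the stages, and 5154, 4431 and 630 genes in all.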

Other observations

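Genes most like a member were sought by the Pearson correlation of log2(CPM + 1) over the 6 samples, a description in which samples of a group and of both stages share tissue and depth. For EMF2a it was LOC_Os01g64690 (r = 0.998), and 630 genes exceeded an r of 0.95. For MET1-2 it was LOC_Os08g27070 (r = 0.990), with 36 genes over 0.95, and for DRM2 it was LOC_Os03g63690 (r = 0.998), with 110. For CLF it was LOC_Os04g17050 (r = 0.995), for EZ1 LOC_Os11g14525 (r = 0.998), for EMF2b LOC_Os01g56290 (r = 0.988), for FIE2 LOC_Os06g20400 (r = 0.977) and for MET1-1 LOC_Os04g35180 (r = 0.996). Among the members, EMF2b and FIE2 were nearest to each other (r = 0.886), and CLF was farthest from its nearest member, MET1-2 (r = 0.526). Many other genes were closer: 2.28% of genes tested were nearer to EMF2b, and 1.14% nearer to FIE2, than these members were to each other. For CLF, 14.4% of genes were closer than MET1-2. CLF and MET1-2 were highest in initiation replicate 2, the library in which EZ1, EMF2b, FIE2, MET1-1 and DRM2 had their lowest primordium level.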
